A study of Mus musculus with 12 samples.

Results

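Chemokines and chemokine receptors made up 50 of the 19938 genes measured here in mouse renal cortex, 33 of them ligands and 17 receptors. They were chosen by name: a probe set counted when its annotation held exactly 1 gene symbol, and that symbol was a numbered Ccl, Cxcl, Ccr or Cxcr gene, Cx3cl1 or Cx3cr1. The 55 probe sets found this way were reduced to 50 genes by keeping, per gene, the probe set with the highest mean over the 12 arrays. A further 7 probe sets whose annotation names several genes, among them copies of Ccl21 and Ccl27, were not analysed here.

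Cortical RNA was amplified and read on Affymetrix gene arrays, with 4 groups of 3 arrays. GR-deficient mice carried Pax8-Cre together with floxed alleles of nr3c1 (Pax8-Cre;nr3c1 flox/flox), so that the gene of the glucocorticoid receptor (GR) is deleted where Pax8-Cre is active, in renal tubular epithelium. Control mice carried the floxed alleles without Cre (nr3c1 flox/flox). Each genotype was studied with acute kidney injury (AKI), 24 hours after glycerol was injected into muscle, and as healthy mice that received no injection. The 4 groups were therefore GR-deficient mice with AKI, control mice with AKI, healthy GR-deficient mice and healthy control mice. The healthy mice were a separate cohort that had no vehicle injection, so cohort and injection cannot be told apart from AKI. A difference between genotypes likewise includes any effect of Pax8-Cre itself. The labels number the replicates without saying that each was a separate animal, so a p-value here reflects array-to-array spread that could be purely technical. The labels state no age, sex or strain.

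Chemokines are small secreted proteins that bind G protein-coupled receptors on leukocytes and guide the cells along a gradient. CXC ligands that carry the ELR amino acid motif act on Cxcr2 and draw neutrophils, ligands of Cxcr3 draw T and NK cells, and several CC ligands draw monocytes through Ccr2. A second class, the homeostatic chemokines such as Cxcl12 and Ccl19, is made without injury and positions cells in resting tissue. Injured tubular epithelium is a known source of neutrophil- and monocyte-attracting chemokines, and the ligand-bound glucocorticoid receptor is known to restrain many genes driven by the transcription factor NF-kB, chemokine genes included.

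Nr3c1, the targeted gene, had log2 values of 8.10, 7.96 and 7.87 in GR-deficient AKI, 8.82, 8.89 and 8.86 in control AKI, 8.18, 8.13 and 8.21 in healthy GR-deficient and 9.65, 9.48 and 9.52 in healthy control mice. Every GR-deficient array was below every control array. In the limma fit described below, Nr3c1 fell after AKI in control mice (-0.69 ± 0.097, SE, adjusted p = 6.56e-05). Its genotype difference was -0.88 ± 0.097 in AKI and -1.38 ± 0.097 in healthy mice, and the AKI responses differed by 0.50 ± 0.14 (adjusted p = 0.0299). The 8 measured proximal tubule markers lay between the 95.2 and 99.9 percentile of all genes by mean level and the 4 measured podocyte markers between the 50.6 and 92.1 percentile, so the defining markers of renal cortex were present. The SD over genes was smallest on control AKI replicate 1, at 1.88 against 1.96 to 2.06 on the other 11 arrays, and 31 of the 50 genes were highest on that array within its group. The share of all genes highest on that array was not counted, so this number cannot be read as particular to the 50 genes. Healthy GR-deficient replicate 1 had the highest log2 value of Lcn2, a marker of tubular injury, in its group, 9.94 against 6.99 and 7.18. With both arrays left out, the counts of genes called below were 3, 21, 10, 0 and 7, against 3, 17, 9, 0 and 7 with all 12 arrays, in the order in which the comparisons follow. The shares of all genes called without both arrays were 6.48%, 35%, 19.7%, 0.13% and 11.8%.

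All values are log2 expression, all differences are on the log2 scale with the standard error (SE) of a limma fit over all 19938 genes, and a gene was called when its p-value, adjusted by Benjamini-Hochberg over all genes, was under 0.05. Unless another setting is named, a statement that a gene was or was not called refers to this fit with all 12 arrays. After AKI in GR-deficient mice 3 of 50 genes were called, 1 higher (Cx3cl1) and 2 lower (Cxcl12 and Ccl28), where 4.64% of all genes were called, 3.29% higher and 1.35% lower. After AKI in control mice 17 were called, 10 higher and 7 lower, where 28.7% of all genes were called, 13.6% higher and 15.1% lower. GR-deficient mice with AKI differed from control mice with AKI in 9 genes, 2 higher and 7 lower, where 17.4% of all genes were called, 10.0% higher and 7.34% lower. After quantile normalization or cyclic loess 4 were higher and 8 lower. The shares of all genes were then 10.1% or 10.4% higher and 9.51% or 9.01% lower. In healthy mice the genotypes differed in 0 of 50 genes, where 0.145% of all genes were called, 0.0351% higher and 0.110% lower, and 4 of the 50 had an unadjusted p under 0.05. The difference between the AKI responses of the 2 genotypes (the interaction) was called in 7 genes, 3 with a higher and 4 with a lower response in GR-deficient mice, where 11.5% of all genes were called, 7.39% higher and 4.06% lower. The responses of control mice, the genotype difference in AKI and the interaction share the 3 control AKI arrays and are not independent of each other. The shares of the 50 genes called were 6%, 34%, 18%, 0% and 14% in these comparisons. The shares of all genes given here are also the background of the chemokine subsets and gene lists described further on. The median difference over the 50 genes was 0.02 after AKI in GR-deficient mice, where the median of all genes was -0.03, and -0.04 after AKI in control mice, where the median of all genes was 0.00.

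**Figure D1:**
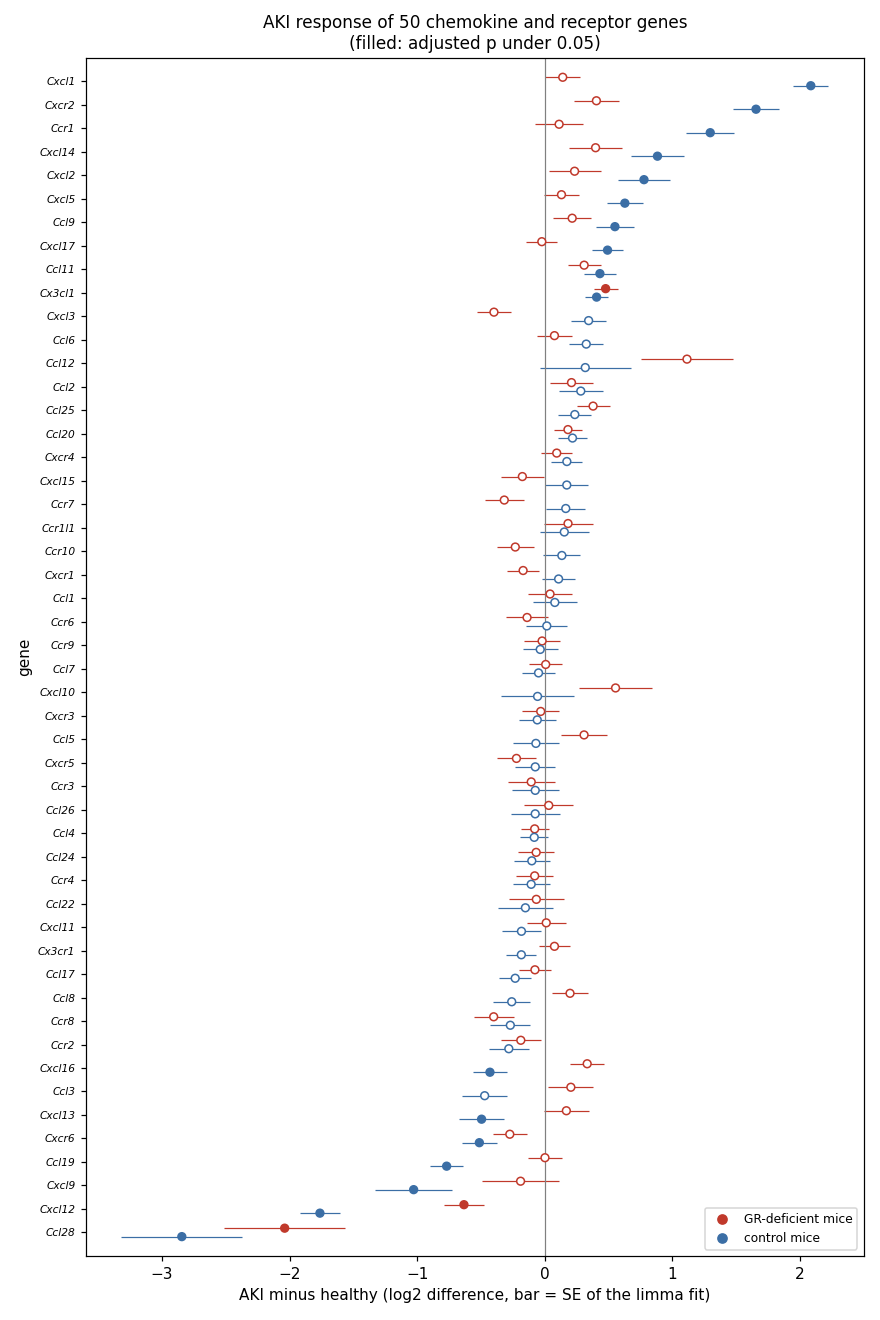
Response of each of the 50 genes to AKI (x axis, AKI minus healthy, log2 difference, with the SE of the limma fit as bar) in GR-deficient mice (red) and control mice (blue). Genes are ordered by the response in control mice, and filled points passed an adjusted p of 0.05. Filled points number 3 for GR-deficient and 17 for control mice, and the points of control mice run between -2.85 for Ccl28 and 2.09 for Cxcl1.

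The 5 ELR ligands held the largest rise. After AKI 0 of 5 were called in GR-deficient mice (1 of 5 with an unadjusted p under 0.05), 3 of 5 rose in control mice, and 3 of 5 were lower in GR-deficient than in control AKI. Of all genes, 4.64% were called after AKI in GR-deficient mice and 13.6% were called higher in control mice. Between genotypes in AKI 7.34% were called lower in GR-deficient mice. The median AKI response of the 5 ligands was 0.13 in GR-deficient and 0.63 in control mice. These genes lie together on chromosome 5, and RefSeq promoter windows (GRCm38.p6, forward strand, the 250 bases before the annotated start) are shown for the 4 of them that have one, because the promoters of Cxcl1, Cxcl2 and Cxcl3 share a run of letters that Cxcl15 lacks. Capitals mark matches on either strand to the NF-kB motif, read here as GGGA and TTCC with any 2 bases between them.
Cxcl3 (chr5:90785851-90786100): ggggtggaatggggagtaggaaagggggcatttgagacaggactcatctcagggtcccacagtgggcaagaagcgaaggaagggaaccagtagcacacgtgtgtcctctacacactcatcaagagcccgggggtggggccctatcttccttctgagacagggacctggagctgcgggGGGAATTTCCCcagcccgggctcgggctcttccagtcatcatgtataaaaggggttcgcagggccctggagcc
Cxcl15 (chr5:90794284-90794533): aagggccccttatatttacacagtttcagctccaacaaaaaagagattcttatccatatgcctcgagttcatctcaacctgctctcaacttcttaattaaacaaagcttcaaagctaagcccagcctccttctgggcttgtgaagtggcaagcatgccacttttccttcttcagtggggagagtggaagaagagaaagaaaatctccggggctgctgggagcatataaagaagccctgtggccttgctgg
Cxcl1 (chr5:90890995-90891244): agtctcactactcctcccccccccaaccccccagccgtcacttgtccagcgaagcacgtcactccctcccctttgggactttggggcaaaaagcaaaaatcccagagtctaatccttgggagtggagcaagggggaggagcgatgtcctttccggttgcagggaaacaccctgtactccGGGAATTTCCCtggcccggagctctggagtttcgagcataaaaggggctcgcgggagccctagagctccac
Cxcl2 (chr5:90903649-90903898): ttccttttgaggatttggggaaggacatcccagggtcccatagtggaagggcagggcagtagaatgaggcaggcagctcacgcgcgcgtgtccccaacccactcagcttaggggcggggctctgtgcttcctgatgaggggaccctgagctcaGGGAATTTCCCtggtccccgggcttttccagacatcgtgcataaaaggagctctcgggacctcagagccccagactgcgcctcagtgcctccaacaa
The run of 11 bases GGGAATTTCCC began 73 bases before the start in Cxcl3, 71 bases before it in Cxcl1 and 97 bases before it in Cxcl2. It occurred in 14 of 32851 RefSeq windows, each 250 bases before to 50 bases after a start, which is 0.0426%. The run was taken from the Cxcl1 window before the search, so its presence in Cxcl1 was given in advance. The NF-kB motif occurred in 1.47% of all windows and in those of 6 of the 36 genes of the class that have a window: Cxcl1, Cxcl2, Cxcl3, Cxcl10, Ccl1 and Ccr3. The AP-1 motif TGANTCA, in 7.81% of all windows, was found in Cxcl9, Cxcl10, Ccl9, Ccl28, Ccr3, Ccr4 and Ccr1l1. ACANNNTGT, a core of the glucocorticoid receptor element present in 6.85% of all windows, was found in Cxcl1, beginning 85 bases before the start, and in Ccr3. Motifs were searched on both strands, and a match describes letters and not binding.

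Cxcl1, a main neutrophil attractant of the mouse, had log2 values of 6.95, 6.53 and 6.70 in GR-deficient AKI, 8.48, 8.90 and 8.49 in control AKI, 6.46, 6.63 and 6.67 in healthy GR-deficient and 6.44, 6.62 and 6.55 in healthy control mice. The control AKI arrays stood alone, more than 1 above any other array, and the GR-deficient AKI arrays overlapped with the healthy ones. The AKI response of Cxcl1 was 0.14 ± 0.14 in GR-deficient mice (adjusted p = 0.639, 95% interval -0.15 to 0.43) and 2.09 ± 0.14, a 4.24-fold rise, in control mice (adjusted p = 7.13e-08). In AKI it was lower in GR-deficient than in control mice (-1.90 ± 0.14, adjusted p = 9.52e-07), and the responses differed by -1.94 ± 0.19 (adjusted p = 5.55e-05). In healthy mice the difference between genotypes was 0.05 ± 0.14 and was not called (adjusted p = 0.947).

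Cxcl2, another Cxcr2 ligand made by leukocytes as well as epithelium, had 5.22, 5.39 and 5.19 in GR-deficient AKI, 6.81, 5.99 and 5.97 in control AKI, 4.70, 5.11 and 5.30 in healthy GR-deficient and 5.28, 5.63 and 5.52 in healthy control mice. All 3 control AKI arrays were above all others, with replicate 1 the highest. Cxcl2 had an AKI response of 0.23 ± 0.20 in GR-deficient mice (adjusted p = 0.595), rose by 0.78 ± 0.20 in control mice (adjusted p = 0.00892) and was lower in GR-deficient than in control AKI with a difference of -0.99 ± 0.20 (adjusted p = 0.00329). Its response was not shown to differ between genotypes (-0.54 ± 0.29, adjusted p = 0.276). In healthy mice the genotype difference of Cxcl2 was -0.44 ± 0.20 (unadjusted p = 0.0463 in limma) and was not called (adjusted p = 0.46).

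Cxcl5, an ELR ligand made mainly by epithelium, averaged 4.87 ± 0.25 in GR-deficient AKI, 5.18 ± 0.091 in control AKI, 4.74 ± 0.16 in healthy GR-deficient and 4.56 ± 0.19 in healthy control mice (SD, n = 3 each). Cxcl5 had an AKI response of 0.13 ± 0.14 in GR-deficient mice (adjusted p = 0.676) and rose by 0.63 ± 0.14 in control mice (adjusted p = 0.00315). Cxcl3 had 4.88, 4.79 and 5.15 in GR-deficient AKI, 5.62, 5.34 and 5.15 in control AKI, 5.46, 5.33 and 5.22 in healthy GR-deficient and 4.97, 5.17 and 4.95 in healthy control mice. Neither AKI response of Cxcl3 was called, at -0.40 ± 0.14 in GR-deficient mice (adjusted p = 0.117) and 0.34 ± 0.14 in control mice (adjusted p = 0.0752; 0.45 ± 0.14 and called, adjusted p = 0.0266, without control AKI replicate 3), but the difference between the 2 responses was (-0.74 ± 0.19, adjusted p = 0.0211, lost without GR-deficient AKI replicate 1 or 2, healthy GR-deficient replicate 1, or healthy control replicate 1 or 3). Cxcl3 was also lower in GR-deficient than in control AKI (-0.43 ± 0.14, adjusted p = 0.0406), a call lost on leaving out replicate 1 or 2 of either AKI group. Its genotype difference in healthy mice was 0.31 ± 0.14 (unadjusted p = 0.0372 in limma) and was not called (adjusted p = 0.437). Cxcl15, known in mouse lung as lungkine, was called in no comparison and had responses of -0.18 ± 0.17 in GR-deficient and 0.17 ± 0.17 in control mice.

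Cxcr2, the neutrophil receptor of the ELR ligands, had 4.83, 4.41 and 4.30 in GR-deficient AKI, 5.62, 5.96 and 5.46 in control AKI, 4.39, 3.82 and 4.11 in healthy GR-deficient and 4.04, 3.83 and 4.21 in healthy control mice. The control AKI arrays were above all others. GR-deficient AKI replicates 1 and 2 were above all healthy arrays, and replicate 3 was below healthy GR-deficient replicate 1. Cxcr2 had an AKI response of 0.40 ± 0.18 in GR-deficient mice (adjusted p = 0.237), rose by 1.66 ± 0.18, or 3.15-fold, in control mice (adjusted p = 5.24e-06) and was lower in GR-deficient than in control AKI (-1.17 ± 0.18, adjusted p = 0.000342). Its responses differed by -1.25 ± 0.25 (adjusted p = 0.00469). With array weights, Cxcr2 was also called after AKI in GR-deficient mice (0.63 ± 0.16, adjusted p = 0.016).

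Ccr1, a receptor of neutrophils, monocytes and macrophages for Ccl3, Ccl5, Ccl6 and Ccl9, had 4.88, 4.36 and 4.41 in GR-deficient AKI, 5.39, 5.96 and 5.89 in control AKI, 4.26, 4.51 and 4.54 in healthy GR-deficient and 4.77, 4.12 and 4.46 in healthy control mice. Again only the control AKI arrays stood apart from the other 3 groups. Ccr1 had an AKI response of 0.11 ± 0.19 in GR-deficient mice (adjusted p = 0.809) and rose by 1.30 ± 0.19, or 2.46-fold, in control mice (adjusted p = 9.6e-05). It was lower in GR-deficient than in control AKI (-1.20 ± 0.19, adjusted p = 0.000506), and its responses differed by -1.18 ± 0.27 (adjusted p = 0.0101). Cxcr1, a second receptor for ELR ligands, was called nowhere, with -0.17 ± 0.13 in GR-deficient and 0.11 ± 0.13 in control mice. The calls of Cxcl1, Cxcl2, Cxcl5, Cxcr2 and Ccr1 after AKI in control mice, and those of Cxcl1, Cxcl2, Cxcr2 and Ccr1 between genotypes in AKI, held under every alternative that tested them. Cxcl2, Cxcl3, Cxcl5, Cxcr2 and Ccr1 are dim, with means over all arrays in the lowest 25% of genes. A difference on the log2 scale can understate a change there, which was not tested for these genes.

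**Figure D2:**
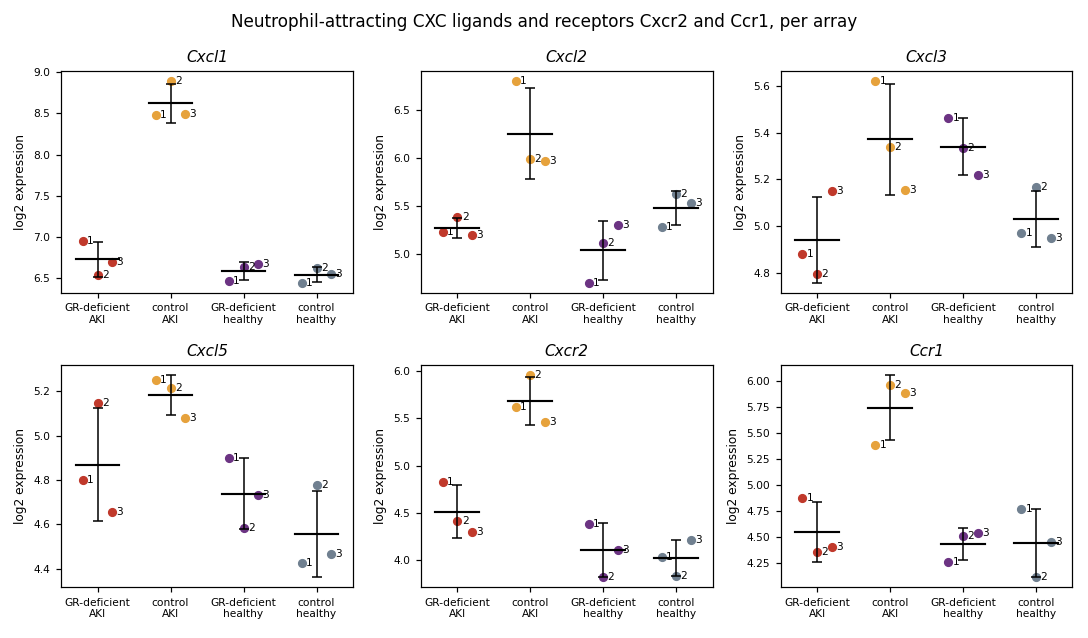
Log2 expression (y axis, a separate scale for each gene) of Cxcl1, Cxcl2, Cxcl3, Cxcl5, Cxcr2 and Ccr1 on each array, with the replicate number beside each point, a line at the group mean and bars of 1 SD (n = 3). The control AKI arrays are the highest for Cxcl1 (8.48 to 8.90), Cxcl2, Cxcr2 and Ccr1, and the GR-deficient AKI arrays lie near the healthy ones.

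Of 11 measured neutrophil markers, 0 were called after AKI in GR-deficient mice (2 had an unadjusted p under 0.05), 6 rose after AKI in control mice, and 5 were lower in GR-deficient than in control AKI. Of all genes, 4.64% were called after AKI in GR-deficient mice and 13.6% were called higher in control mice. Between genotypes in AKI 7.34% were called lower in GR-deficient mice. The summed level of the neutrophil markers, the log2 of the sum over markers, ranged from 9.12 to 9.38 in GR-deficient AKI, 9.89 to 10.24 in control AKI, 9.07 to 9.14 in healthy GR-deficient and 8.99 to 9.17 in healthy control mice. Such a sum is taken over linear values, so the brightest markers weigh most in it. S100a8, a calcium-binding protein abundant in neutrophils, had an AKI response of 0.55 ± 0.20 in GR-deficient mice (adjusted p = 0.15) and rose by 2.05 ± 0.20 in control mice (adjusted p = 2.43e-06). S100a9, its partner, had an AKI response of 0.55 ± 0.18 in GR-deficient mice (adjusted p = 0.107) and rose by 1.76 ± 0.18 in control mice. Retnlg, a resistin-like protein of granulocytes, had an AKI response of 0.14 ± 0.19 in GR-deficient mice and rose by 1.57 ± 0.19 in control mice. Csf3r, the receptor of granulocyte colony-stimulating factor, had an AKI response of 0.07 ± 0.11 in GR-deficient mice and rose by 0.75 ± 0.11 in control mice. Mmp8 and Mmp9 also rose in control mice, by 0.83 and 0.43. Trem1, Ngp, Cd177 and Camp were not called there, at 0.30, 0.08, 0.07 and -0.01. The defining marker Ly6g was at 5.27 in GR-deficient AKI, 5.30 in control AKI, 5.22 in healthy GR-deficient and 5.10 in healthy control mice and was not called. A part of neutrophil number in the results for Cxcr2, Ccr1 and the ELR ligands was not tested, and in tissue RNA fewer cells of a type and less RNA per cell cannot be told apart.

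Cxcl9, an interferon-induced ligand of Cxcr3 that draws T and NK cells, had 6.01, 7.24 and 6.13 in GR-deficient AKI, 5.71, 5.89 and 5.44 in control AKI, 6.73, 7.00 and 6.21 in healthy GR-deficient and 6.86, 7.10 and 6.17 in healthy control mice. All control AKI arrays were below all other arrays. Cxcl9 had an AKI response of -0.19 ± 0.30 in GR-deficient mice (adjusted p = 0.796) and fell by 1.03 ± 0.30 in control mice, to 0.49 of its healthy level (adjusted p = 0.0181). The call was lost on leaving out control AKI replicate 3 or healthy control replicate 1 or 2, and the genotype difference in AKI was 0.78 ± 0.30 (adjusted p = 0.099). With all 12 arrays Cxcl10 and Cxcl11 were called in no comparison. Cxcl10 had 8.16, 8.37 and 6.92 in GR-deficient AKI, 7.27, 6.98 and 7.51 in control AKI, 7.28, 7.48 and 7.01 in healthy GR-deficient and 7.49, 7.41 and 7.03 in healthy control mice. Replicates 1 and 2 of GR-deficient AKI were the highest of all arrays and replicate 3 the lowest, and the AKI response was 0.55 ± 0.29 in GR-deficient mice (adjusted p = 0.33). Without replicate 3 of GR-deficient AKI, Cxcl10 was called after AKI in GR-deficient mice (1.00 ± 0.19, adjusted p = 0.00949), between genotypes in AKI (1.01 ± 0.19, adjusted p = 0.00294) and for the interaction (1.06 ± 0.25, adjusted p = 0.0189). Cxcl11 was called higher in GR-deficient than in control AKI in 5 of 16 alternatives, among them leaving out control AKI replicate 1 (0.53 ± 0.13, adjusted p = 0.0149). Cxcr3, their receptor on T and NK cells, had an AKI response of -0.03 ± 0.15 in GR-deficient and -0.06 ± 0.15 in control mice, and of 11 measured T and NK cell markers 0 were called in either genotype (1 in GR-deficient and 2 in control mice with an unadjusted p under 0.05).

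In the fit described above, 0 of 4 monocyte-attracting ligands were called in any comparison, and for 3 of them leaving out 1 array gave a call. Ccl12, a mouse ligand of Ccr2, had 6.78, 6.84 and 4.89 in GR-deficient AKI, 5.15, 5.34 and 5.25 in control AKI, 5.23, 4.89 and 5.05 in healthy GR-deficient and 4.90, 5.07 and 4.83 in healthy control mice. As with Cxcl10, replicates 1 and 2 of GR-deficient AKI were above every other array and replicate 3 was at the healthy level. Its response was 1.11 ± 0.36 in GR-deficient mice (adjusted p = 0.0968, 95% interval 0.35 to 1.88) and 0.32 ± 0.36 in control mice (adjusted p = 0.625). Without replicate 3 of GR-deficient AKI the response in GR-deficient mice was 1.76 ± 0.13 and was called (adjusted p = 1.85e-05), as were the genotype difference in AKI (1.56 ± 0.13, adjusted p = 1.21e-05) and the interaction (1.44 ± 0.17, adjusted p = 0.000501). These values rest on 2 GR-deficient AKI arrays, and array weights also called the response and the genotype difference in AKI. Ccl2, the main monocyte attractant of this group, averaged 6.37 ± 0.23 in GR-deficient AKI, 6.60 ± 0.37 in control AKI, 6.16 ± 0.19 in healthy GR-deficient and 6.32 ± 0.13 in healthy control mice (SD, n = 3 each). Its responses were 0.21 ± 0.17 with an interval of -0.16 to 0.58 in GR-deficient mice and 0.28 ± 0.17 with an interval of -0.09 to 0.65 in control mice. Without control AKI replicate 3 the response of Ccl2 in control mice was 0.49 ± 0.15 and was called (adjusted p = 0.0258). Ccl7 and Ccl8 lay between 5.57 and 6.12 and between 4.06 and 4.85 on all 12 arrays. Without control AKI replicate 1, Ccl8 was called after AKI in control mice (-0.42 ± 0.13, adjusted p = 0.025), between genotypes in AKI (0.41 ± 0.13, adjusted p = 0.047) and for the interaction (0.61 ± 0.17, adjusted p = 0.034). Quantile normalization and cyclic loess also called Ccl8 between genotypes in AKI (0.33 ± 0.11, adjusted p = 0.0468, and 0.32 ± 0.11, adjusted p = 0.0457). Both also called its interaction (0.56 ± 0.15, adjusted p = 0.0268, and 0.55 ± 0.15, adjusted p = 0.024). Ccr2, the receptor of Ccl2, had an AKI response of -0.19 ± 0.15 in GR-deficient and -0.28 ± 0.15 in control mice, and Cx3cr1, which marks resident macrophages and patrolling monocytes, had one of 0.08 ± 0.12 in GR-deficient and -0.18 ± 0.12 in control mice. None of the 4 values of Ccr2 and Cx3cr1 was called.

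**Figure D3:**
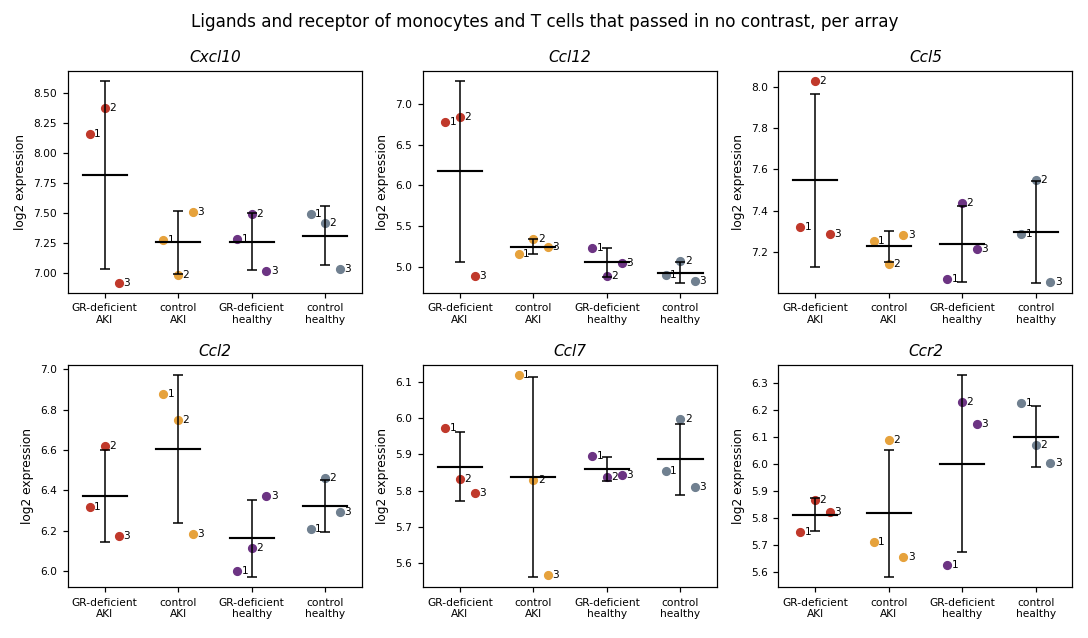
Log2 expression (y axis, a separate scale for each gene) of Cxcl10, Ccl12, Ccl5, Ccl2, Ccl7 and Ccr2, which were called in no comparison with all 12 arrays, on each array, with the replicate number, a line at the group mean and bars of 1 SD (n = 3). For Cxcl10 and Ccl12 the GR-deficient AKI arrays split, with replicates 1 and 2 high and replicate 3 low (8.16, 8.37 and 6.92 for Cxcl10).

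Among the macrophage inflammatory ligands, Ccl9 was the one called with all 12 arrays. This Ccr1 ligand had 6.30, 6.41 and 6.53 in GR-deficient AKI, 7.14, 7.03 and 6.46 in control AKI, 6.14, 6.16 and 6.29 in healthy GR-deficient and 6.31, 6.32 and 6.36 in healthy control mice. Ccl9 had an AKI response of 0.21 ± 0.15 in GR-deficient mice (adjusted p = 0.483), rose by 0.55 ± 0.15 in control mice (adjusted p = 0.0101, lost without control AKI replicate 2) and was lower in GR-deficient than in control AKI (-0.46 ± 0.15, adjusted p = 0.0413). The last call was lost in 9 of 16 alternatives, among them leaving out control AKI replicate 1 or 2 or any of the 3 GR-deficient AKI arrays. The interaction of Ccl9 was called without control AKI replicate 3 (-0.54 ± 0.15, adjusted p = 0.0264). Ccl3, which activates Ccr1, was not called, at 0.20 ± 0.18 in GR-deficient mice and -0.47 ± 0.18 in control mice (adjusted p = 0.0599). The value in control mice was called in 5 of 15 alternatives, among them the 2 groups alone and leaving out control AKI replicate 1 (-0.58 ± 0.19, adjusted p = 0.0314), and the interaction of Ccl3 was called without healthy GR-deficient replicate 2 (0.85 ± 0.24, adjusted p = 0.0366). Ccl5, made by T cells, platelets and epithelium, had 7.32, 8.03 and 7.29 in GR-deficient AKI, 7.26, 7.14 and 7.28 in control AKI, 7.07, 7.44 and 7.21 in healthy GR-deficient and 7.29, 7.55 and 7.06 in healthy control mice. Its replicate 2 of GR-deficient AKI was the highest of all 12 arrays, and no comparison was called. Ccl4 and Ccl6 were not called either, with -0.08 ± 0.11 and 0.08 ± 0.13 in GR-deficient mice and -0.08 ± 0.11 and 0.32 ± 0.13 in control mice. Without control AKI replicate 3 the response of Ccl6 in control mice was 0.46 ± 0.13 and was called (adjusted p = 0.0146).

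Of 12 measured monocyte and macrophage markers, 2 rose after AKI in GR-deficient mice (16.7%, where 4.64% of all genes were called), and in control mice 2 rose and 1 fell (25%, where 28.7% of all genes were called). Cd14, the lipopolysaccharide co-receptor, rose by 1.39 ± 0.23 in GR-deficient mice (adjusted p = 0.00435) and 3.92 ± 0.23 in control mice (adjusted p = 3.77e-08). Cd68, a lysosomal protein of phagocytes, rose by 1.28 ± 0.17 in GR-deficient and 2.85 ± 0.17 in control mice. Csf1r, the growth factor receptor that defines macrophages, had an AKI response of -0.27 ± 0.12 in GR-deficient mice (adjusted p = 0.256) and fell by 0.85 ± 0.12 in control mice. C1qa, C1qb, C1qc and Adgre1, further defining markers, were called in neither. The summed level was 11.06 to 11.52 in GR-deficient AKI, 11.92 to 12.15 in control AKI, 10.97 to 11.16 in healthy GR-deficient and 10.96 to 11.16 in healthy control mice, and its part in the results above was not tested. In control AKI Cd14 (mean 10.45) and Cd68 (mean 10.15) were the brightest of the 12 markers and weighed most in this sum. The median AKI response of the 12 markers was 0.11 in GR-deficient and 0.03 in control mice.

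Of the 7 CC ligands of lymphocytes and eosinophils, only Ccl11, an eosinophil attractant acting through Ccr3, was called. It averaged 6.48 ± 0.12 in GR-deficient AKI, 6.60 ± 0.099 in control AKI, 6.17 ± 0.13 in healthy GR-deficient and 6.17 ± 0.24 in healthy control mice (SD, n = 3 each). Ccl11 had an AKI response of 0.31 ± 0.13 in GR-deficient mice (adjusted p = 0.212) and rose by 0.43 ± 0.13 in control mice (adjusted p = 0.0193, lost without control AKI replicate 1 or healthy control replicate 3), and the difference between the responses was -0.12 ± 0.18 and was not called (adjusted p = 0.748). Ccl1, Ccl17, Ccl20, Ccl22, Ccl24 and Ccl26, ligands of Ccr8, Ccr4, Ccr6, Ccr4, Ccr3 and Ccr3, had responses within -0.08 to 0.18 in GR-deficient and within -0.23 to 0.22 in control mice. Without control AKI replicate 1, Ccl22 (-0.47 ± 0.14, adjusted p = 0.0231) and Ccl24 (-0.30 ± 0.10, adjusted p = 0.0427) were called after AKI in control mice.

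Homeostatic and epithelial ligands were the role with the most calls in control mice. After AKI 2 of 7 fell in GR-deficient mice, and in control mice 2 of 7 rose and 4 fell. Their median response was 0.00 in GR-deficient and -0.50 in control mice. Cxcl12, the ligand of Cxcr4 that retains leukocytes and progenitors in tissue, had 8.79, 8.72 and 8.84 in GR-deficient AKI, 7.31, 7.62 and 7.95 in control AKI, 9.42, 9.65 and 9.18 in healthy GR-deficient and 9.54, 9.39 and 9.24 in healthy control mice. The 3 levels did not overlap: control AKI was lowest, GR-deficient AKI lay between, and both healthy groups were highest. Cxcl12 fell by 0.63 ± 0.15 in GR-deficient mice (adjusted p = 0.0316) and by 1.76 ± 0.15, to 0.295 of its healthy level, in control mice (adjusted p = 8.28e-07). It was higher in GR-deficient than in control AKI (1.16 ± 0.15, adjusted p = 0.000123), and the responses differed by 1.13 ± 0.22 (adjusted p = 0.00391). The call in GR-deficient mice was lost in 7 of 16 alternatives: leaving out any of 5 of the 6 arrays of that comparison, the replicate block, and testing all probe sets, whereas the other 3 calls held under all 16 or 21 alternatives that tested them. Cxcr4, its receptor, was not called (0.09 ± 0.12 in GR-deficient and 0.17 ± 0.12 in control mice).

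Ccl19, the ligand of Ccr7 that guides dendritic cells and naive T cells, had 7.39, 7.21 and 7.40 in GR-deficient AKI, 6.87, 6.49 and 6.63 in control AKI, 7.11, 7.42 and 7.47 in healthy GR-deficient and 7.33, 7.58 and 7.38 in healthy control mice. Only the control AKI arrays stood apart, below all others. Ccl19 had an AKI response of 0.00 ± 0.13 in GR-deficient mice (adjusted p = 0.996, 95% interval -0.28 to 0.28) and fell by 0.77 ± 0.13 in control mice (adjusted p = 0.000325). It was higher in GR-deficient than in control AKI (0.67 ± 0.13, adjusted p = 0.00205), and the responses differed by 0.77 ± 0.18 (adjusted p = 0.0133). All 5 probe sets of Ccl19, which share near-identical gene copies and are not independent, gave responses of -0.06 to 0.00 in GR-deficient and -0.84 to -0.77 in control mice. Ccr7 was not called (-0.32 ± 0.15 in GR-deficient and 0.16 ± 0.15 in control mice). Of 8 dendritic cell markers, H2-Ab1, a major histocompatibility class II chain, was the one called, with -0.25 ± 0.20 in GR-deficient mice and -1.12 ± 0.20 in control mice (adjusted p = 0.000454).

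Ccl28, a ligand of Ccr10 and Ccr3 made by mucosal and glandular epithelium, fell the most. It had 7.98, 8.52 and 7.28 in GR-deficient AKI, 6.98, 7.10 and 8.95 in control AKI, 9.14, 10.17 and 10.59 in healthy GR-deficient and 10.44, 10.17 and 10.96 in healthy control mice. AKI and healthy arrays did not overlap within either genotype, and the 2 AKI groups overlapped. The fall was 2.04 ± 0.47, to 0.243 of the healthy level, in GR-deficient mice (adjusted p = 0.0247) and 2.85 ± 0.47, to 0.139 of it, in control mice (adjusted p = 0.000293). The call in control mice held under all 16 alternatives, and that in GR-deficient mice was lost in 6 of 16: without GR-deficient AKI replicate 1 or 3, without healthy GR-deficient replicate 2 or 3, with a trended robust prior, and with all probe sets tested. The responses were not shown to differ (0.81 ± 0.67, 95% interval -0.63 to 2.24, adjusted p = 0.522). Ccr10 was not called. Beside this fall, 2 of 8 proximal tubule markers and 1 of 8 markers of the loop, distal tubule and collecting duct fell after AKI in GR-deficient mice, against 8 of 8 and 6 of 8 in control mice. Their part in the result was not tested.

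Cxcl14, an epithelial and stromal chemokine, and Cxcl17, a mucosal one, rose in control mice. Cxcl14 had 8.47, 8.75 and 8.18 in GR-deficient AKI, 8.84, 9.19 and 9.17 in control AKI, 8.47, 8.20 and 7.53 in healthy GR-deficient and 8.05, 8.32 and 8.18 in healthy control mice. Cxcl14 had an AKI response of 0.40 ± 0.20 in GR-deficient mice (adjusted p = 0.327) and rose by 0.88 ± 0.20 in control mice (adjusted p = 0.00392). Its genotype difference in AKI was -0.60 ± 0.20 and was not called (adjusted p = 0.059), but it was called in 9 of 16 alternatives, among them leaving out control AKI replicate 1 (-0.71 ± 0.22, adjusted p = 0.0425) or GR-deficient AKI replicate 2 (-0.74 ± 0.22, adjusted p = 0.0442). Cxcl17 averaged 6.29 ± 0.097 in GR-deficient AKI, 6.90 ± 0.21 in control AKI, 6.31 ± 0.14 in healthy GR-deficient and 6.41 ± 0.11 in healthy control mice (SD, n = 3 each). Cxcl17 had an AKI response of -0.02 ± 0.12 in GR-deficient mice (adjusted p = 0.951), rose by 0.49 ± 0.12 in control mice (adjusted p = 0.0065) and was lower in GR-deficient than in control AKI (-0.61 ± 0.12, adjusted p = 0.00284), with a difference of responses of -0.52 ± 0.17 that was not called (adjusted p = 0.0721). That difference was called in 5 of 21 alternatives, among them leaving out control AKI replicate 2 (-0.61 ± 0.17, adjusted p = 0.0465) or healthy GR-deficient replicate 1 (-0.59 ± 0.17, adjusted p = 0.0465).

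Cxcl13, the B cell attractant read by Cxcr5, averaged 5.34 ± 0.14 in GR-deficient AKI, 5.45 ± 0.39 in control AKI, 5.17 ± 0.23 in healthy GR-deficient and 5.94 ± 0.16 in healthy control mice (SD, n = 3 each). Cxcl13 had an AKI response of 0.17 ± 0.18 in GR-deficient mice (adjusted p = 0.663) and fell by 0.50 ± 0.18 in control mice (adjusted p = 0.047), a call that 11 of 15 alternatives did not keep, among them leaving out control AKI replicate 1 or 2 or any healthy control array. Of 5 B and plasma cell markers, Jchain, the joining chain of secreted antibodies, was the one called, with -0.79 ± 0.38 in GR-deficient and -1.76 ± 0.38 in control mice (adjusted p = 0.00226). In healthy mice Cxcl13 was at -0.77 ± 0.18 in GR-deficient against control mice, the largest genotype difference of the class without injury, and was not called (adjusted p = 0.124). It was called there with array weights, and without control AKI replicate 1 or 3, arrays that enter only through the shared spread. The interaction of Cxcl13 was called without control AKI replicate 3 (0.88 ± 0.21, adjusted p = 0.0115). Ccl25, a ligand of Ccr9 known from thymus and gut, was not called, with 0.38 ± 0.13 in GR-deficient mice (adjusted p = 0.119) and 0.24 ± 0.13 in control mice.

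**Figure D4:**
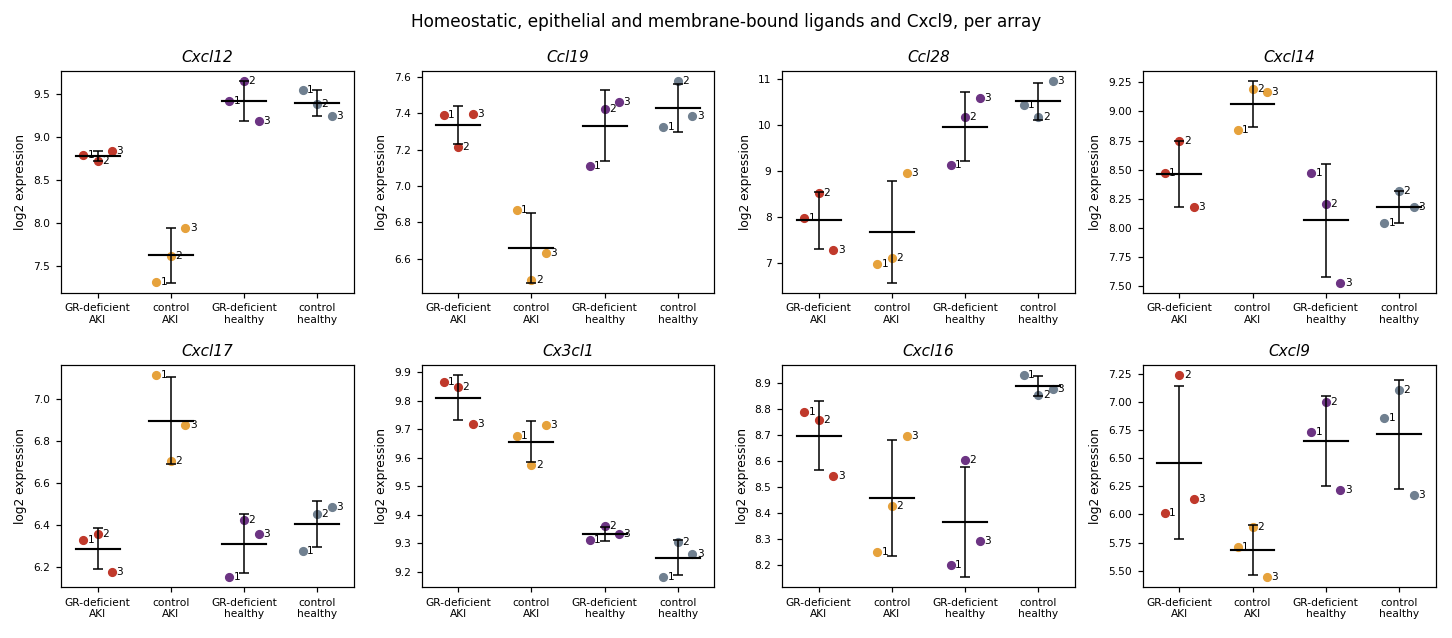
Log2 expression (y axis, a separate scale for each gene) of Cxcl12, Ccl19, Ccl28, Cxcl14, Cxcl17, Cx3cl1, Cxcl16 and Cxcl9 on each array, with the replicate number, a line at the group mean and bars of 1 SD (n = 3). Control AKI arrays are the lowest for Cxcl12 (7.31 to 7.95), Ccl19 and Cxcl9 and the highest for Cxcl14 and Cxcl17, and Cx3cl1 is higher in both AKI groups than in both healthy groups.

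In control mice 1 of the 2 membrane-bound ligands rose and 1 fell. Cx3cl1 (fractalkine), which is tethered to epithelium and endothelium and binds Cx3cr1, had 9.86, 9.85 and 9.72 in GR-deficient AKI, 9.68, 9.57 and 9.72 in control AKI, 9.31, 9.36 and 9.33 in healthy GR-deficient and 9.18, 9.30 and 9.26 in healthy control mice. All 6 AKI arrays were above all 6 healthy arrays. Cx3cl1 was the only gene of the class called higher after AKI in both genotypes, by 0.48 ± 0.093 in GR-deficient mice (adjusted p = 0.00952, lost without GR-deficient AKI replicate 1) and by 0.41 ± 0.093 in control mice (adjusted p = 0.00365). The difference between the responses was 0.07 ± 0.13, with an interval of -0.21 to 0.35, and was not called (adjusted p = 0.804). Ccl9, Ccl11 and Ccl25 also had all AKI arrays above all healthy arrays within each genotype, without being called in both.

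Cxcl16, a transmembrane ligand of Cxcr6, had 8.79, 8.76 and 8.54 in GR-deficient AKI, 8.25, 8.43 and 8.70 in control AKI, 8.20, 8.60 and 8.29 in healthy GR-deficient and 8.93, 8.85 and 8.88 in healthy control mice. The healthy control arrays were above all other arrays. Cxcl16 had an AKI response of 0.33 ± 0.13 in GR-deficient mice (adjusted p = 0.196) and fell by 0.43 ± 0.13 in control mice (adjusted p = 0.0246, lost without any array of that comparison other than control AKI replicate 3), and the responses differed by 0.76 ± 0.19 (adjusted p = 0.0168). The difference between healthy GR-deficient and healthy control mice was -0.52 ± 0.13 and was not called (adjusted p = 0.171). In AKI the genotype difference of Cxcl16 was 0.24 ± 0.13 and was not called either (adjusted p = 0.272). Cxcr6, its receptor on T and NKT cells, averaged 4.81 ± 0.17 in GR-deficient AKI, 4.68 ± 0.20 in control AKI, 5.09 ± 0.18 in healthy GR-deficient and 5.19 ± 0.13 in healthy control mice (SD, n = 3 each). Cxcr6 had an AKI response of -0.27 ± 0.14 in GR-deficient mice (adjusted p = 0.303) and fell by 0.51 ± 0.14 in control mice (adjusted p = 0.00934, lost without control AKI replicate 2).

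Among the 17 receptors Cxcr2, Ccr1 and Cxcr6 were called with all 12 arrays, and Ccr8 was called after AKI in control mice without control AKI replicate 1 (-0.44 ± 0.14, adjusted p = 0.0305). The 9 other CC receptors, Ccr1l1, Ccr2, Ccr3, Ccr4, Ccr6, Ccr7, Ccr8, Ccr9 and Ccr10, had AKI responses within -0.40 to 0.18 in GR-deficient and within -0.28 to 0.16 in control mice. The 5 other CXC and CX3C receptors, Cxcr1, Cxcr3, Cxcr4, Cxcr5 and Cx3cr1, lay within -0.22 to 0.09 and within -0.18 to 0.17. Of the 50 genes, 20 were in the dimmest 25% of all genes, 10 receptors and 10 ligands, and 7 of these 20 were called somewhere. Over the class, 32 genes were called in no comparison with all 12 arrays, and 23 of these were highest on control AKI replicate 1 within that group, the array with the narrow spread. The share of all genes highest on that array was not counted.

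Genes whose arrays did not overlap between groups were counted as well. After AKI in GR-deficient mice 5 genes were higher and 5 lower on every array, where 25.3% of all genes did not overlap, 12.8% higher and 12.5% lower. After AKI in control mice 14 were higher and 7 lower, where the share of all genes was 39.6%, 19.3% higher and 20.4% lower. GR-deficient AKI did not overlap with control AKI for 6 higher and 8 lower genes, where the share was 32.8%, 17.5% higher and 15.3% lower. Healthy GR-deficient mice did not overlap with healthy control mice for 3 higher and 4 lower genes, where the share was 18.6%, 8.08% higher and 10.6% lower.

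The cytokine and NF-kB list, like the others below, was chosen with earlier results of these data known. Of its 22 measured genes, 2 rose in GR-deficient mice and 11 in control mice, none fell, and 9 were lower in GR-deficient than in control AKI. Myd88, the adaptor of Toll-like and interleukin-1 receptors, rose by 0.45 ± 0.099 in GR-deficient mice (adjusted p = 0.0182) and 1.17 ± 0.099 in control mice (adjusted p = 6.16e-07), with responses that differed by -0.72 ± 0.14 (adjusted p = 0.00407). Nfkb2, an NF-kB subunit, had an AKI response of 0.36 ± 0.10 in GR-deficient mice (adjusted p = 0.0599) and rose by 0.98 ± 0.10 in control mice. Il6, the gene of a cytokine of the acute phase, had an AKI response of 0.55 ± 0.25 in GR-deficient mice (adjusted p = 0.248) and rose by 2.03 ± 0.25 in control mice. Nfkbiz, a nuclear cofactor of NF-kB, had an AKI response of 0.41 ± 0.16 in GR-deficient mice (adjusted p = 0.19) and rose by 1.23 ± 0.16 in control mice. Tnf was not called, at 0.03 ± 0.14 in both genotypes. The median over the list was 0.08 in GR-deficient and 0.34 in control mice.

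Of 12 leukocyte adhesion genes 1 rose in GR-deficient mice (Icam1, the endothelial ligand of leukocyte integrins, 0.53 ± 0.14, adjusted p = 0.049) and 4 in control mice, which is 8.33% beside 4.64% of all genes and 33.3% beside 28.7%. Those called in control mice were Cd44, a hyaluronan receptor (1.30 ± 0.12), Itgam (0.99 ± 0.15) and Itgb2 (0.50 ± 0.11), the chains of the neutrophil and macrophage integrin Mac-1, and Pecam1 (0.45 ± 0.13). Between genotypes in AKI, 1 adhesion gene was called higher and 2 lower in GR-deficient mice, where 10.0% of all genes were called higher and 7.34% lower. Of 21 genes of signalling below the receptors, 1 rose in GR-deficient mice (the G protein subunit Gnai2, 0.47 ± 0.10) and 4 in control mice, led by Rgs2, which shortens G protein signals (1.10 ± 0.15), and Gnb1 (0.56 ± 0.10). These shares, 4.76% and 19%, were near or below the 4.64% and 28.7% of all genes. Of 14 genes for chemokine cleavage, shedding and matrix binding, 1 fell in GR-deficient mice (Mmp2, -0.46 ± 0.12), and in control mice 5 rose and 1 fell. The gene that fell was Dpp4, a brush-border peptidase that trims several chemokines including Cxcl12, with -0.03 ± 0.18 in GR-deficient mice (adjusted p = 0.962) and -1.37 ± 0.18 in control mice (adjusted p = 3.82e-05). Sdc1 and Sdc4, heparan sulfate proteoglycans that hold chemokines at cell surfaces, rose in control mice by 0.75 ± 0.11 and 0.50 ± 0.11.

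Of 13 atypical receptors and other chemotactic factors, 1 rose and 1 fell in each genotype. Ccrl2, a non-signalling receptor that binds chemerin, fell by 0.43 ± 0.11 in GR-deficient mice (adjusted p = 0.0395) and by 0.84 ± 0.11 in control mice (adjusted p = 3.41e-05). Rarres2, which encodes chemerin, rose by 1.00 ± 0.21 in GR-deficient mice (adjusted p = 0.0157), was at 0.03 ± 0.21 in control mice (adjusted p = 0.96) and was higher in GR-deficient than in control AKI (1.95 ± 0.21, adjusted p = 2.46e-05). Its difference between healthy GR-deficient and healthy control mice was 0.98 ± 0.21 (adjusted p = 0.104) and the difference between its responses was 0.98 ± 0.30 (adjusted p = 0.0514), and neither was called. Cmklr1, the chemerin receptor, had an AKI response of 0.37 ± 0.11 in GR-deficient mice (adjusted p = 0.0743) and rose by 0.53 ± 0.11 in control mice. Pf4, platelet factor 4, was not called, and neither were Ackr1, Ackr2 and Ackr4, receptors that take up chemokines without signalling. Ackr3, the atypical receptor of Cxcl12, had no called AKI response and was higher in GR-deficient than in control AKI (0.39 ± 0.13, adjusted p = 0.0435).

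Markers of the other cells of the cortex moved too. Of 9 endothelial markers 0 were called in GR-deficient mice (3 with an unadjusted p under 0.05), while in control mice 3 rose and 2 fell, among them Cdh5, the junction protein VE-cadherin (0.58 ± 0.11), and Kdr, a receptor of vascular endothelial growth factor (-0.94 ± 0.11). Of 10 fibroblast and mural cell markers 2 rose in GR-deficient mice, and in control mice 4 rose and 3 fell. Pdgfrb, a receptor of pericytes and fibroblasts, rose by 0.87 ± 0.12 in GR-deficient and 1.02 ± 0.12 in control mice. Of 4 podocyte markers 0 were called in GR-deficient mice (also 0 with an unadjusted p under 0.05), while in control mice 1 rose and 1 fell. These cell type counts stand beside 4.64% of all genes called in GR-deficient and 28.7% in control mice. Of 8 tubular injury genes 4 rose in GR-deficient and 7 in control mice. Havcr1, the kidney injury molecule, rose by 3.50 ± 0.46 in GR-deficient and 6.12 ± 0.46 in control mice, and the summed level of these genes was 11.94 to 12.96 in GR-deficient AKI, 14.53 to 14.64 in control AKI, 9.89 to 11.17 in healthy GR-deficient and 9.82 to 9.95 in healthy control mice. Between genotypes in AKI, 6 of the 8 injury genes were called lower and 1 higher in GR-deficient mice. Injury markers thus differed between the AKI groups along with the chemokines, and their part in the chemokine differences was not tested. In healthy mice 0 genes of any of the 16 lists were called between genotypes by limma, and at most 2 genes of a list had an unadjusted p under 0.05.

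**Figure D5:**
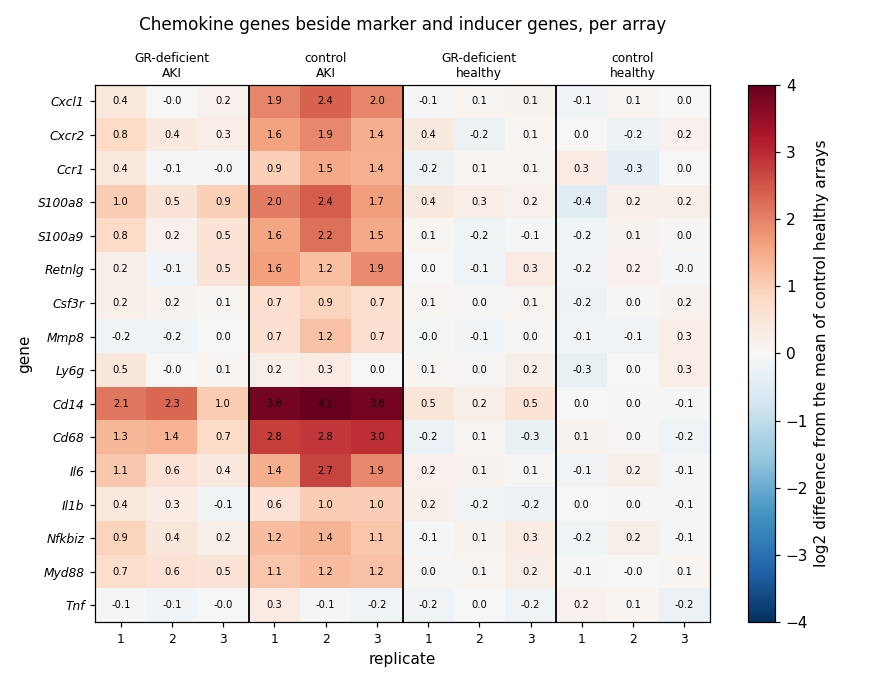
Log2 difference of each array from the mean of the healthy control arrays (colour and printed value, scale -4 to 4) for Cxcl1, Cxcr2 and Ccr1, neutrophil markers (S100a8, S100a9, Retnlg, Csf3r, Mmp8, Ly6g), phagocyte markers (Cd14, Cd68) and inducing genes (Il6, Il1b, Nfkbiz, Myd88, Tnf), by group and replicate (x axis). Control AKI arrays carry the strongest colour for all of these except Ly6g and Tnf, and Cd14 is raised in GR-deficient AKI as well. The genes were picked from lists of 11 neutrophil, 12 monocyte and macrophage, and 22 cytokine and NF-kB genes. Of the neutrophil markers left out, Mmp9 rose after AKI in control mice and Trem1, Ngp, Cd177 and Camp were not called. Among the monocyte and macrophage markers left out, Csf1r fell and the others were not called.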

How the data were processed

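Renal cortex RNA was measured on 12 single-colour arrays. Per the submitters' processing notes the deposited values were made with RMA, affy and oligo, with versions not given in the sources used here. The values behave as log2 expression (array maxima 14.73 to 14.90). The authors deposited these log2 values, the log base is read from the values, and they were not normalized again. Of 35556 probe sets, 21789 were annotated with 1 gene symbol, 1621 with several and 12146 with none, which gave 19938 genes, each by its probe set with the highest mean. Symbols were checked against RefSeq, and 0 were updated.

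limma 3.58.1 (R 4.3.3) was fitted to the 4 group means of all genes with its default prior, and 5 contrasts were tested with Benjamini-Hochberg adjustment over all genes at 0.05. The number of arrays limits the precision. Python 3.11.15 was used for joins and plots. Values on every array are given for members called with a log2 difference of at least 1, and group means, differences or ranges for other members. List genes are given by their differences. The names of members not called with all arrays but called without 1 array were added after their values were seen. Per-array values of further genes, such as Cxcl2, Cxcl10, Ccl12 and Ccl5, were added after their values were seen. The members, gene lists and motifs were chosen with earlier results of these data known. Alternatives were quantile normalization, cyclic loess, array weights, a trended robust prior, no dim genes, other probe set choices, the groups compared alone, a replicate block and each array left out.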

Additional observations from a re-analysis of the deposited data

Results flagged for a closer look

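For 7 of the 50 genes the response to AKI differed between genotypes by the interaction term of the limma fit over all genes. All differences are the log2 response of GR-deficient mice minus that of control mice, and all rest on the same 3 control AKI arrays. Lower responses in GR-deficient mice were found for Cxcl1 (-1.94 ± 0.19, SE, adjusted p = 5.55e-05), Cxcr2 (-1.25 ± 0.25, adjusted p = 0.00469), Ccr1 (-1.18 ± 0.27, adjusted p = 0.0101) and Cxcl3 (-0.74 ± 0.19, adjusted p = 0.0211). Higher responses in GR-deficient mice were found for Cxcl12 (1.13 ± 0.22, adjusted p = 0.00391), Ccl19 (0.77 ± 0.18, adjusted p = 0.0133) and Cxcl16 (0.76 ± 0.19, adjusted p = 0.0168). Of the 7 genes, Cxcl3 passed in 13 of 20 alternatives, and the other 6 passed in every alternative that tested them. The healthy groups also enter these differences. For Cxcl16 the genotype difference was -0.52 ± 0.13 in healthy mice and 0.24 ± 0.13 in AKI, neither of them called. For Cxcl3 it was 0.31 ± 0.14 in healthy mice, not called, and -0.43 ± 0.14 in AKI.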

How the results depend on the processing

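Over the 36 calls of named genes, 533 of 598 checks under an alternative passed, 65 were lost and 0 reversed. Counts of genes called moved by over 1.5 times under these settings. With array weights they were 8 of 50 after AKI in GR-deficient mice, 31 after AKI in control mice, 19 between genotypes in AKI, 1 between genotypes in healthy mice (Cxcl13) and 13 for the interaction, where 16%, 48.4%, 35.1%, 1.51% and 24.6% of all genes were called. With all probe sets tested, 1 gene (Cx3cl1) was called after AKI in GR-deficient mice. Without the dimmest 25% of genes, 11 of 30 genes were called after AKI in control mice, where 39.5% of the 14953 genes kept were called. The cause of these shifts was not tested, apart from the smaller number of genes in the last. Of the comparisons of single genes that were not called, 42, in 27 genes, were called under at least 1 alternative. Leaving out each array of a comparison in turn gave 0 to 3 calls after AKI in GR-deficient mice (0 without GR-deficient AKI replicate 1, where 7 had an unadjusted p under 0.05 in limma, and 1 without healthy GR-deficient replicate 2), 13 to 19 in control mice, 7 to 10 between genotypes in AKI, 0 in healthy mice and 6 to 9 for the interaction. The shares of all genes called there were 1.39% to 4.61%, 23.3% to 30.1%, 12.1% to 18.6%, 0.0502% to 0.577% and 7.8% to 13.5%, in the same order. Same-numbered arrays did not deviate together: 3 of 18 pairs had a correlation over 0.1 (range -0.41 to 0.252), and 3 of 12 arrays correlated best with one of their own number. With the replicate number as a block, the counts were 2, 17, 8, 0 (3 with an unadjusted p under 0.05) and 7 in the same order of comparisons, where 3.37%, 26.9%, 15.6%, 0.125% and 10.1% of all genes were called. The precision is limited by 3 arrays per group and, for 20 dim genes, by signal near the low end.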
